A study of Bos indicus with 6 samples.

Results

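The 67 genes described here are the cadherins, protocadherins and desmosome proteins of the bovine isthmus, among 24616 genes in the deposited table. They were taken by symbol, as every gene named CDH, PCDH, DSG, DSC or PKP followed by its number or letter, together with DSP, JUP, CTNNB1, CTNNA1 and CTNND1, and without CDH5. E-cadherin stood in the table under the name E-CADHERIN and so fell outside that rule, and it is given with the related genes. The isthmus is the narrow part of the oviduct next to the uterus, and the samples held its whole wall, on the side of the corpus luteum, from multiparous non-lactating Nelore cows (Bos indicus) killed on day 4 after the GnRH injection.

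The study compared cows that ovulated a large follicle and formed a large corpus luteum (LF/LCL, cows 617, 79 and 527) with cows that ovulated a small follicle and formed a small corpus luteum (SF/SCL, cows 856, 489215 and 97). All cows were given a vaginal progesterone device of 1 g and 2 mg of estradiol benzoate on day -10, then prostaglandin F2 alpha at device removal and again after it, then GnRH. The LF/LCL cows received an additional dose of prostaglandin when the device was inserted, and their device came out 42 h before GnRH, against 30 h in SF/SCL. The sequenced animals were the top ranked of LF/LCL and the bottom ranked of SF/SCL, so they represent the extremes of each treatment, with 1 library per cow and 3 cows per group.

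Cadherins are membrane proteins that bind cadherins of the neighbouring cell in the presence of calcium. Classical cadherins, of type I or type II, hold adherens junctions together, and their tails bind beta-catenin (CTNNB1) and p120-catenin (CTNND1), while alpha-catenin (CTNNA1) links the complex to actin. Desmosomes are spot-like junctions in which the desmogleins (DSG) and desmocollins (DSC) bind across the gap between cells, and plakoglobin (JUP), plakophilins (PKP) and desmoplakin (DSP) tie them to keratin or desmin filaments. Protocadherins lack the catenin-binding tail of classical cadherins. Those of the alpha and gamma clusters (PCDHA and PCDHG) are read from alternative first exons in a row on the chromosome. In the oviduct these junctions join the secretory and ciliated cells of the lining, and other cadherins are made by the muscle, connective tissue, vessels and nerves of the wall.

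Values are normalized counts, that is, reads of a gene divided by the size factor of the library. Depth was 23899117 to 34193164 reads per library, with a median of 27155932. The tissue markers were those of oviduct wall: PAX8, a transcription factor of the secretory lineage, lay at 469 to 1441 normalized counts, and the summed smooth muscle markers at 315210 to 1207464. Cow 489215 stood apart from the other SF/SCL cows. Its OVGP1, the oviduct-specific glycoprotein of secretory cells, was 730, against 271794 in cow 856 and 325158 in cow 97, and 287 to 1950 in LF/LCL. It was below all the other 5 cows in 24 of the 54 genes tested here (35.7% of all genes tested) and above them in 3 (36.7% of all genes tested). Results are therefore given with and without cow 489215. That cow was picked out from these same values, and leaving it out keeps only cows 856 and 97 in SF/SCL. The p-values without it are therefore descriptive and are no separate support. Per-cow values below are always in the order 617, 79, 527 for LF/LCL and 856, 489215, 97 for SF/SCL. In whole tissue, fewer cells of a type and less RNA per cell cannot be told apart.

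Of the 67 genes, 54 were tested. Another 9 had a mean of 5 or less over the 6 cows (CDH9, CDH10, CDH12, CDH15, CDH18, PCDH8, PCDHA3, PCDHB1 and DSG4), and CDH12 had no read in any library. The last 4 varied more than their mean (CDH2, CDH6, CDH19 and CDH22). None of the 54 passed a Benjamini-Hochberg adjusted p-value of 0.05 in limma, and none of all 15387 genes tested did (0%). Without adjustment, 11 of the 54 (20.4%) had a p-value under 0.05 (8.66% of all genes tested), of which 9 were higher in LF/LCL (4.48%) and 2 in SF/SCL (4.19%). By the edgeR quasi-likelihood test 0 passed the adjusted threshold and 11 the unadjusted one (8.49% of all genes), and by limma-voom 0 and 11 (9.02%). DESeq2 called 5, which were PKP1, DSG3, PCDHA11, PCDH7 and PCDH18 (2.66% of all genes), all higher in LF/LCL.

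Without cow 489215, 12 of the 56 genes that could then be tested passed the adjusted threshold in limma (18.2% of all genes tested). Of these, 9 were higher in LF/LCL (7.92% of all genes tested) and 3 in SF/SCL (10.3% of all genes tested). The 9 were the classical cadherins CDH3, CDH11 and CDH19, the protocadherins PCDH7, PCDH12, PCDH18 and PCDHA11, the desmoglein DSG3 and the plakophilin PKP1. The 3 were DSP, JUP and PKP2. The 5 genes called by DESeq2 in all 6 libraries were among the 12. The share past the threshold was 21.4%, near that of all genes. Over all genes tested, limma called 2827 without cow 489215 and 0 without any other cow. The number at an unadjusted p-value under 0.05 was 18 without cow 489215 (33.9% of all genes), 17 without cow 856 (6.87%) and 7 without cow 527 (4.32%).

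The values of the groups did not overlap in 16 of the 54 genes (18.1% of all genes tested). LF/LCL was higher in 11 (8.6% of all genes tested) and SF/SCL in 5 (9.51% of all genes tested). Without cow 489215 the number was 24 of 56 (42.9%), against 52% of all genes tested. The log2 fold change of SF/SCL over LF/LCL was negative, that is, the level was higher in LF/LCL, in 42 of the 54 genes. Over all genes tested it was negative in 7915 of 15387. Without cow 489215 it was negative in 34 of 56 genes, and in 7763 of 15495 over all genes tested. The median log2 fold change was -0.60, against -0.02 over all genes tested, and -0.23 without cow 489215. The direction differed by role. All 9 protocadherins outside the clusters had negative fold changes, with a median of -0.92, whereas the plaque proteins had a median of 0.59 and the catenins with PKP4 a median of 0.22.

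**Figure D1:**
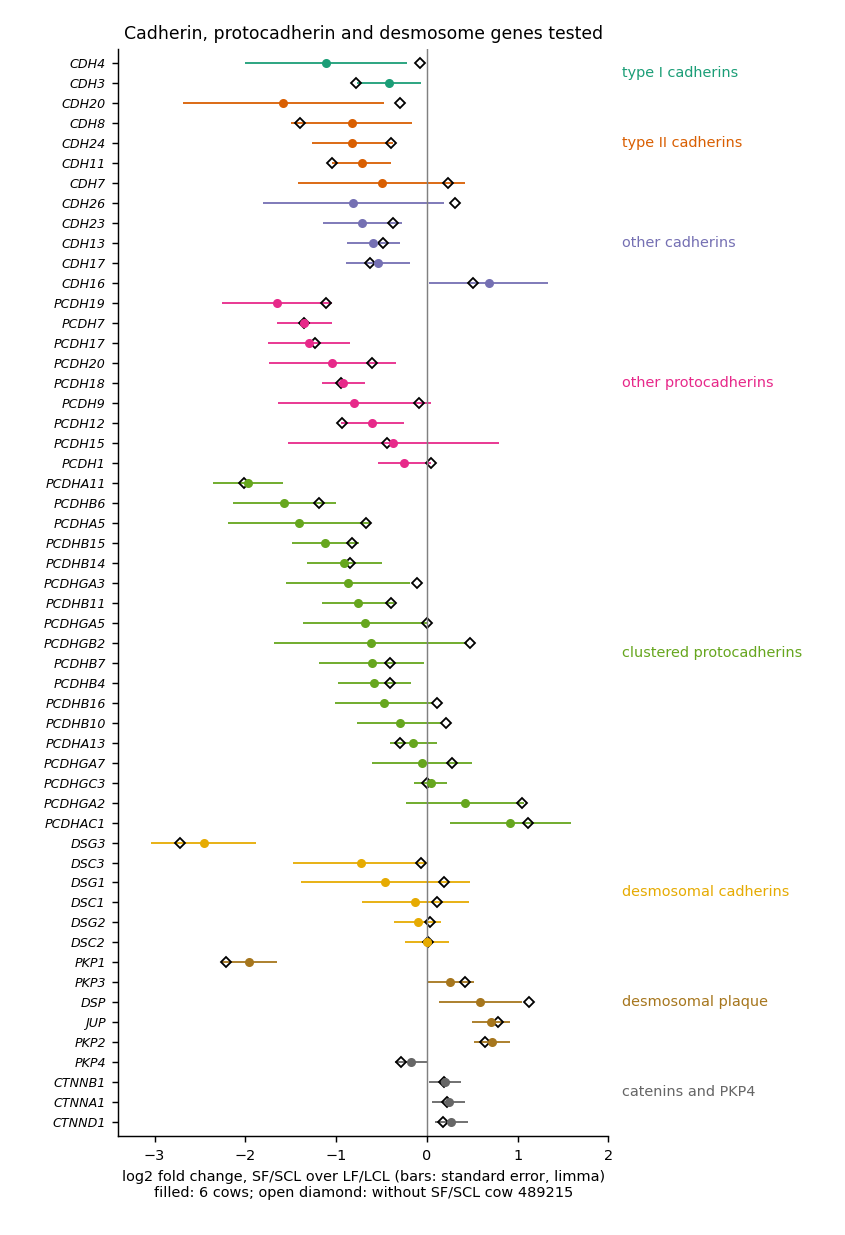
Log2 fold change of SF/SCL over LF/LCL for the 54 genes tested, by role, with the standard error from limma as a bar and the value without cow 489215 as an open diamond. The 9 protocadherins outside the clusters lie left of 0 with all 6 cows, and 4 of 5 plaque genes lie right of it, PKP1 at -1.96 being the exception.

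The plaque proteins of the desmosome differed in direction. PKP1 (ENSBTAG00000046350), the plakophilin best known from stratified epithelia such as epidermis, was measured at 604, 580 and 454 in LF/LCL and at 123, 194 and 111 in SF/SCL. The lowest LF/LCL cow lay above the highest SF/SCL cow. The means were 546 ± 80.5 and 143 ± 45.2 (SD, n = 3 each), and the log2 fold change was -1.96 (SE 0.31), or 3.9-fold higher in LF/LCL. Its adjusted p-value was 0.351 in limma, 1.65e-06 in DESeq2 and 0.0024 in limma without cow 489215, where the log2 fold change was -2.21.

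PKP2 (ENSBTAG00000002651), the plakophilin of simple epithelia and heart muscle, had the opposite direction. Its values were 2802, 2592 and 2229 in LF/LCL and 3368, 4595 and 4643 in SF/SCL, without overlap. It had a log2 fold change of 0.72 (SE 0.20), with an adjusted p-value of 0.412 in limma and of 0.0416 without cow 489215. JUP (ENSBTAG00000017685), which serves in both desmosomes and adherens junctions, was 7806, 6850 and 5842 in LF/LCL and 10030, 9924 and 13607 in SF/SCL. All SF/SCL cows, cow 489215 included, lay above all LF/LCL cows. Its log2 fold change was 0.71 (SE 0.21), with an adjusted p-value of 0.437 in limma and of 0.027 without cow 489215.

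DSP (ENSBTAG00000015106), the plakin that anchors the filaments, depended on cow 489215. It was 13278, 11795 and 9503 in LF/LCL, and 24582, 8187 and 24969 in SF/SCL. Cows 856 and 97 lay above all LF/LCL cows, and cow 489215 lay below all of them. With the 6 cows the log2 fold change was 0.59 (SE 0.46, adjusted p-value 0.821, limma), and without cow 489215 it was 1.12 (SE 0.15, adjusted p-value 0.00608). PKP3 (ENSBTAG00000048098), a plakophilin found in most desmosomes, was 773, 577 and 516 in LF/LCL and 816, 583 and 828 in SF/SCL. The groups overlapped, with a log2 fold change of 0.26 (SE 0.26, adjusted p-value 0.859, limma).

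As a ratio within each library, PKP1 held 21.6%, 22.4% and 20.4% of the count of PKP2 in the LF/LCL cows, and 3.65%, 4.23% and 2.38% in the SF/SCL cows. This ratio does not depend on the size factor, and cow 489215 fell with its own group. The ratio restates the values above, in a pair chosen after they were known, so that no test is given. Markers of a stratified or basal lining summed to 33.4 to 429 in LF/LCL and to 58.6 to 1976 in SF/SCL over the 4 of 6 that were in the table. TP63, the defining factor of such cells, was 0 to 2.28 in every cow, and KRT5 was 420, 32.9 and 13.2 in LF/LCL and 1943, 30.6 and 683 in SF/SCL. The general epithelial gene EPCAM was 12286, 9925 and 8530 in LF/LCL and 15871, 20313 and 18854 in SF/SCL, higher in SF/SCL as were PKP2 and JUP. The summed secretory markers were 25381 to 35750 in LF/LCL, 311715 and 372562 in cows 856 and 97 and 54210 in cow 489215, and most of the sum in cows 856 and 97 was OVGP1. The other 5 secretory markers (PAX8, EPCAM, KRT8, KRT18 and KRT19) summed to 23431 to 35463 in LF/LCL and to 39921, 53481 and 47404 in SF/SCL, with cow 489215 highest. PAX8 alone was 663, 503 and 539 in LF/LCL and 1441, 469 and 1437 in SF/SCL, with cow 489215 lowest. The summed ciliated markers, of which PIFO was at 0 in every cow, were 10084 to 12319 in LF/LCL, 27055 and 28793 in cows 856 and 97 and 7103 in cow 489215. In that sum, as in DSP, cows 856 and 97 were highest and cow 489215 was lowest, whereas DNAI1 (783) and CCDC39 (1744) of the list were higher in cow 489215 than in any LF/LCL cow (475 to 588 and 1436 to 1706). The part of the lining cells in the values of PKP2, JUP and DSP was not tested.

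**Figure D2:**
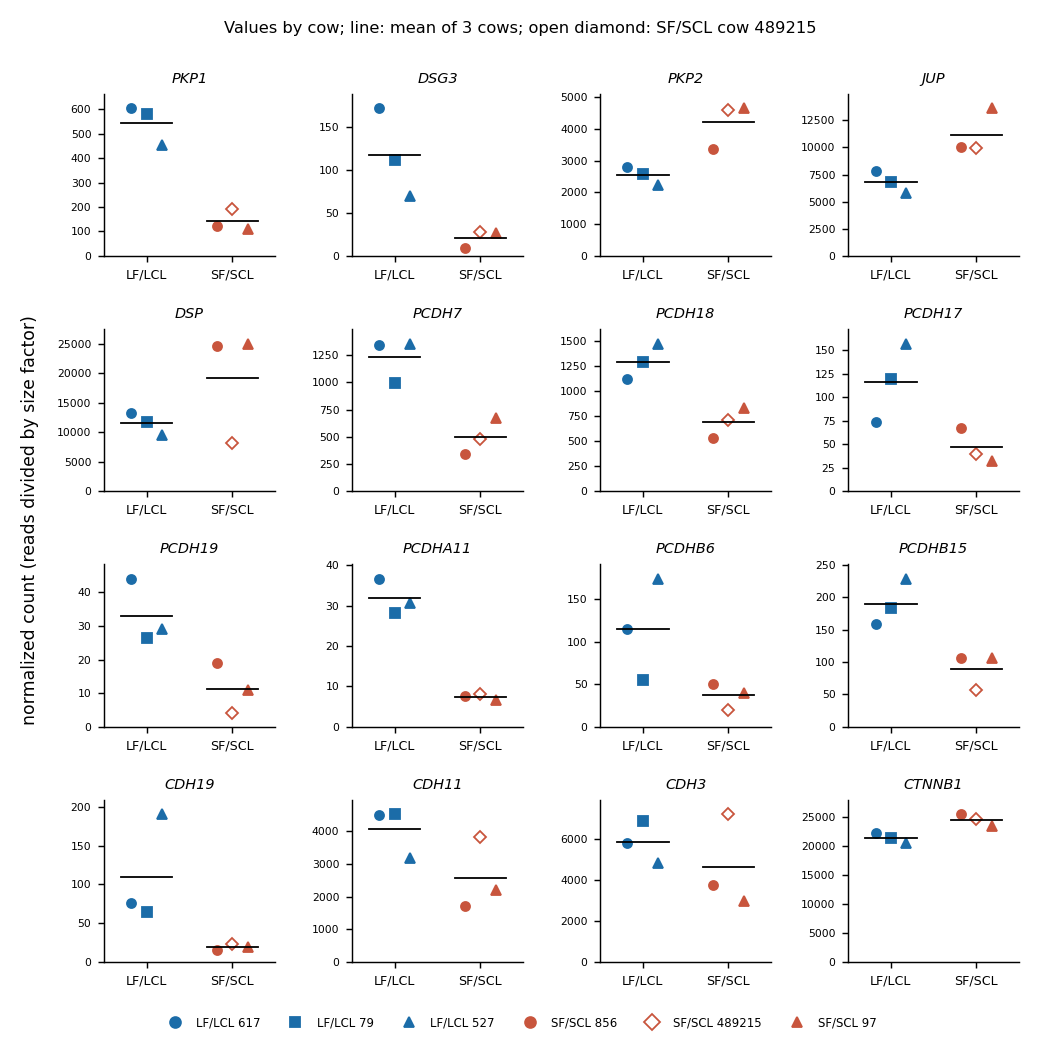
Normalized counts of 16 genes by cow (linear axes from 0), with a line at each group's mean of 3 cows and an open diamond for cow 489215. In PKP1 the LF/LCL cows lie at 454 to 604 and the SF/SCL cows at 111 to 194, whereas in PKP2 and JUP the SF/SCL cows are above; in DSP and CDH11 cow 489215 is apart from the other SF/SCL cows.

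The desmosomal cadherins showed a single large difference, in DSG3 (ENSBTAG00000039483), the desmoglein of stratified epithelia and the target of antibodies in pemphigus vulgaris. It was 172, 112 and 69.4 in LF/LCL and 9.12, 28 and 27.1 in SF/SCL. The groups did not overlap, and the means were 118 ± 51.4 and 21.4 ± 10.6 (SD, n = 3 each). This was a log2 fold change of -2.46 (SE 0.58), or 5.5-fold higher in LF/LCL, with an adjusted p-value of 0.381 in limma, 0.00306 in DESeq2 and 0.024 in limma without cow 489215.

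DSG2 (ENSBTAG00000021923) and DSC2 (ENSBTAG00000040584), the pair used by simple epithelia, differed by less than the spread between cows. DSG2 was 7129, 5516 and 4035 in LF/LCL and 5091, 4254 and 5973 in SF/SCL, with a log2 fold change of -0.10 (SE 0.26). DSC2 was 2086, 1323 and 1499 in LF/LCL and 1379, 1576 and 1905 in SF/SCL, with a log2 fold change of 0.00 (SE 0.24). Their adjusted p-values in limma were 0.944 and 1. DSC3, another cadherin of stratified linings, ranged from 433 to 1663 in LF/LCL and from 194 to 1102 in SF/SCL, with overlap. DSC1 and DSG1, known from the upper epidermis, lay at 16.7 to 60.1 and at 1.33 to 13.6 over the 6 cows, also with overlap, and DSG4, of the hair follicle, did not exceed 2.09.

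Within each library, DSG3 made up 2.41%, 2.02% and 1.72% of the count of DSG2 in the LF/LCL cows and 0.179%, 0.657% and 0.454% in the SF/SCL cows. Here too the groups did not overlap, in a pair chosen with its values known. In the RefSeq gene order of a Bos indicus assembly, DSG2, DSG3, DSG4, DSG1, DSC1, DSC2 and DSC3 follow one another on chromosome 24, with 1 other gene between DSG3 and DSG4. DSG3 and its direct neighbour DSG2 thus had log2 fold changes of -2.46 and -0.10. The desmosomal cadherins together had a median log2 fold change of -0.29 in the 6 tested, and 0.02 without cow 489215.

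**Figure D3:**
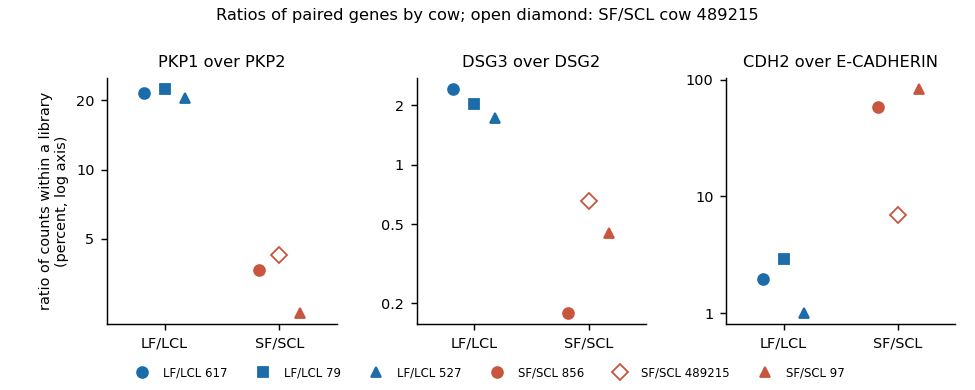
Ratio of the counts of paired genes within each library, in percent on log axes, with 1 point per cow and cow 489215 as an open diamond. PKP1 over PKP2 is 20.4% to 22.4% in LF/LCL and 2.38% to 4.23% in SF/SCL, DSG3 over DSG2 is lower in SF/SCL, and CDH2 over E-CADHERIN is higher in SF/SCL with cow 489215 (6.92%) between the groups' other cows.

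Among the type I cadherins, E-cadherin and N-cadherin had opposite directions. E-CADHERIN (ENSBTAG00000015991), the adherens junction cadherin of epithelia, was 5285, 4830 and 4674 in LF/LCL and 2716, 2715 and 2993 in SF/SCL. Each SF/SCL cow, cow 489215 included, lay well below each LF/LCL cow. The means were 4929 ± 317 and 2808 ± 160 (SD, n = 3 each), and the log2 fold change was -0.81 (SE 0.15), with an adjusted p-value of 0.367 in limma, 0.000229 in DESeq2 and 0.0051 in limma without cow 489215. The epithelial markers EPCAM and KRT8 had the other direction, KRT8 being 9195, 6558 and 6246 in LF/LCL and 11457, 13358 and 11912 in SF/SCL.

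CDH2 (ENSBTAG00000021190), N-cadherin, which is made by nerve, muscle, mesothelium and some epithelia, was 103, 142 and 47.4 in LF/LCL and 1581, 188 and 2493 in SF/SCL. No SF/SCL cow reached down to LF/LCL, but cow 489215 was far nearer to LF/LCL than to its own group. CDH2 did not enter the main test because its mean was under its standard deviation. With the filter on the mean alone, its log2 fold change was 3.34, with an adjusted p-value of 0.43 in limma. Its count was 1.94%, 2.93% and 1.01% of that of E-CADHERIN in the LF/LCL libraries and 58.2%, 6.92% and 83.3% in the SF/SCL libraries.

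CDH6 (ENSBTAG00000012992), a type II cadherin known from kidney and Müllerian epithelia, was 62.8, 38.5 and 112 in LF/LCL and 798, 20 and 458 in SF/SCL. CDH22 (ENSBTAG00000005672), a type II cadherin first described in brain, was 58.6, 23.5 and 7.03 in LF/LCL and 113, 14.6 and 242 in SF/SCL. Both were high in cows 856 and 97, and cow 489215 lay below every LF/LCL cow in CDH6 and within their range in CDH22. On the filter by the mean alone, the log2 fold changes were 1.59 and 1.74, with adjusted p-values of 0.829 and 0.769 in limma. The pattern of cows 856 and 97 alone was that of OVGP1, and the summed mesothelial markers (MSLN, UPK3B, WT1, CALB2 and LRRN4) had it as well, at 2452 to 3314 in LF/LCL, 26249 and 26728 in cows 856 and 97, and 3483 in cow 489215. Of that list MSLN and WT1 were high in cows 856 and 97, CALB2 did not exceed 6.84 in any cow, UPK3B was 87 to 326 in LF/LCL and 37.2, 141 and 626 in SF/SCL, and LRRN4 was 175 to 412 in LF/LCL and 3.8 to 16.3 in SF/SCL. Their part in CDH2, CDH6 and CDH22 was not tested.

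CDH3 (ENSBTAG00000033248), P-cadherin, was 5815, 6869 and 4821 in LF/LCL and 3769, 7183 and 2993 in SF/SCL. Cow 489215 was the highest of all 6 cows, and cows 856 and 97 were the lowest. The log2 fold change was -0.42 (SE 0.35, adjusted p-value 0.834, limma), and without cow 489215 it was -0.78 (adjusted p-value 0.0273). CDH3 and the gene of E-cadherin lie close together on chromosome 18 of the RefSeq assembly, with 3 genes between them. CDH4, R-cadherin, was 149, 150 and 157 in LF/LCL and 213, 16 and 96.5 in SF/SCL, with cow 489215 lowest, and its log2 fold change of -1.11 (SE 0.89) became -0.08 without that cow. CDH15, the cadherin of skeletal muscle, was 16.7 in cow 527 and at most 2.17 in the others.

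CDH11 (ENSBTAG00000032092), a type II cadherin of fibroblasts and other mesenchymal cells, was 4503, 4519 and 3173 in LF/LCL and 1703, 3832 and 2205 in SF/SCL. Cows 856 and 97 were below all LF/LCL cows and cow 489215 was among them. With all cows the log2 fold change was -0.72 (SE 0.33, adjusted p-value 0.628, limma), and -1.05 without cow 489215 (SE 0.19, adjusted p-value 0.0161). The summed fibroblast markers were 156971 to 192032 in LF/LCL, 80929 and 83129 in cows 856 and 97, and 125939 in cow 489215. In that sum, as in COL1A1 of the list (54405), cow 489215 lay between the others of its group and LF/LCL. In PDGFRA (6353), DCN (58982) and DPT (2737) it was within the LF/LCL range, as in CDH11, and in LUM (3462) it was the lowest cow. The part of fibroblasts in CDH11 was not tested.

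CDH19 (ENSBTAG00000023270), a type II cadherin of Schwann cells and their precursors, was 76.4, 63.8 and 190 in LF/LCL and 15.2, 22.6 and 19.5 in SF/SCL. The groups did not overlap, and cow 489215 was with its group. The means were 110 ± 69.3 and 19.1 ± 3.74 (SD, n = 3 each). The high value of cow 527 raised its standard deviation above its mean, so CDH19 was left out of the main test. With the filter on the mean alone its log2 fold change was -2.31 (adjusted p-value 0.373, limma). It was -2.44 without cow 489215 (SE 0.52, adjusted p-value 0.025), -1.83 without cow 527, -2.16 without cow 856 and -2.33 without cow 97, and the adjusted p-values of the last 3 were 0.999, 0.705 and 0.699.

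Other genes of Schwann cells were set beside it. SOX10, their transcription factor, was 54.4, 62.9 and 128 in LF/LCL and 19.7, 59.9 and 46.6 in SF/SCL. Cow 489215 was within the LF/LCL range for SOX10 but not for CDH19. S100B, which other cells also make, was 2584 to 5400 in LF/LCL and 32285, 8852 and 29027 in SF/SCL. ERBB3, a receptor of Schwann cells and of epithelia, was 5871, 4526 and 4386 in LF/LCL and 6143, 4603 and 7069 in SF/SCL, with overlap. The part of nerve in CDH19 was not tested.

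**Figure D4:**
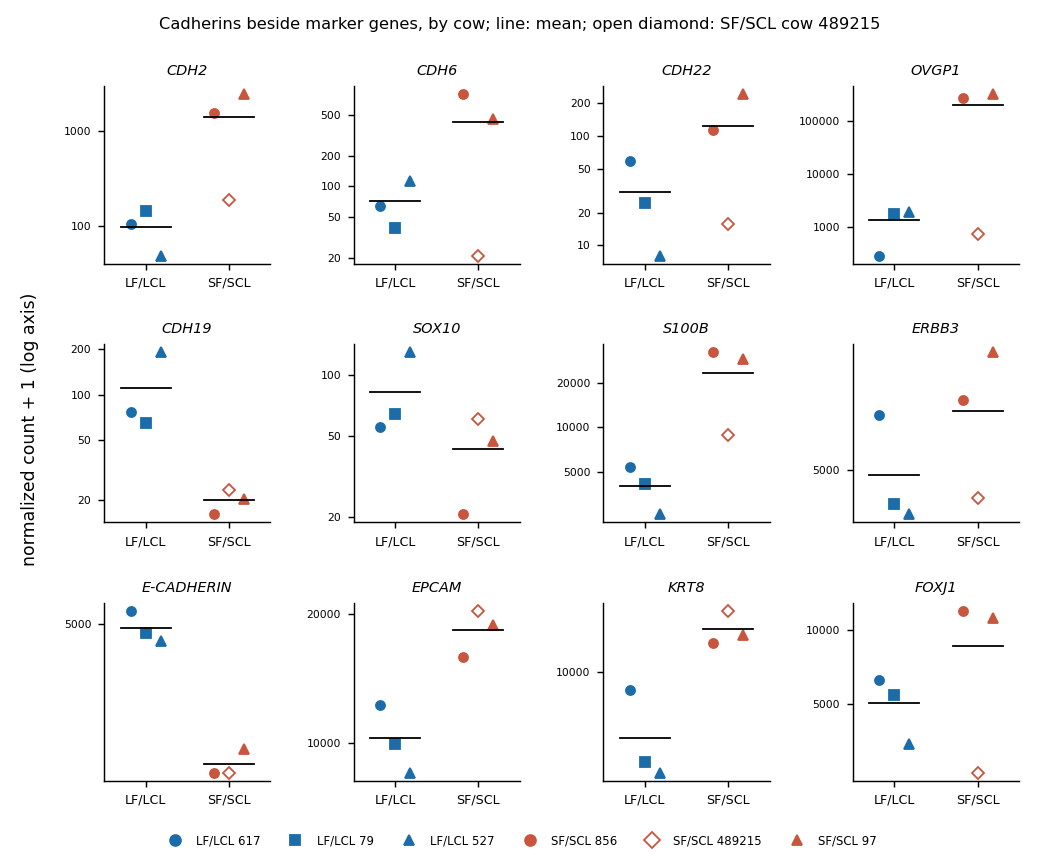
Normalized count plus 1 on log axes, by cow, for cadherins and marker genes of cell types, with a line at the mean of each group and an open diamond for cow 489215. CDH2, CDH6 and CDH22 are high in cows 856 and 97, as OVGP1 is, CDH19 lies at 63.8 to 190 in LF/LCL and 15.2 to 22.6 in SF/SCL beside SOX10, S100B and ERBB3, and E-CADHERIN is lower in all SF/SCL cows while EPCAM and KRT8 are higher.

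The remaining type II cadherins, which are mostly genes of the nervous system, were low or overlapped. CDH24 was 206 to 357 in LF/LCL and 91.9 to 250 in SF/SCL, and CDH8 was 16.9 to 38.7 and 6.5 to 33.3. CDH20 was 24.1, 16 and 12.3 in LF/LCL and 16.7, 0 and 10.8 in SF/SCL. The 0 of cow 489215 allows up to 3 reads, or 3.99 normalized counts, and the log2 fold change went from -1.58 to -0.30 without that cow. CDH7 lay between 1.33 and 23.7. CDH18 had reads in cow 489215 alone (2.66), and CDH9 and CDH10 did not exceed 2.63 in any cow. The 5 tested type II cadherins all had negative log2 fold changes, with a median of -0.82, and 0 of them reached an unadjusted p-value under 0.05.

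The other cadherins, outside type I and type II, had a median log2 fold change of -0.59 in the 5 tested. CDH13, which is held to the membrane by a lipid anchor, was 1062, 811 and 964 in LF/LCL and 915, 537 and 499 in SF/SCL, with overlap. CDH17, known from the intestine, was 35.6, 35.7 and 42.2 in LF/LCL and 22, 29.3 and 26 in SF/SCL. Its groups did not overlap, but its log2 fold change of -0.54 had a standard error of 0.35 and an adjusted p-value of 0.764 in limma. CDH23, part of the tip links of hair cells in the inner ear, was 499 to 1238 and 286 to 603, with overlap, and CDH16, known from kidney, did not exceed 11.4. CDH26, a cadherin of epithelia, was 27.2, 16 and 14.1 in LF/LCL and 30.4, 1.33 and 17.3 in SF/SCL, and the sign of its fold change turned with cow 489215, from -0.81 to 0.31 without it.

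The protocadherins outside the clusters held 4 of the 11 genes with an unadjusted p-value under 0.05, all higher in LF/LCL (4.48% of all genes tested) and all without overlap (8.6%). These were 44.4% of the 9 tested. PCDH7 (ENSBTAG00000000061), a protocadherin first described in brain and heart, was 1341, 993 and 1355 in LF/LCL and 338, 482 and 671 in SF/SCL. The means were 1230 ± 205 and 497 ± 167 (SD, n = 3 each). Its log2 fold change was -1.35 (SE 0.30), or 2.54-fold higher in LF/LCL, and was the same without cow 489215. The adjusted p-value was 0.372 in limma, 0.0107 in DESeq2 and 0.0273 in limma without cow 489215.

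PCDH18 (ENSBTAG00000015549) was 1123, 1289 and 1476 in LF/LCL and 532, 710 and 829 in SF/SCL. As with PCDH7, cow 489215 was between the other 2 SF/SCL cows. The log2 fold change was -0.92 (SE 0.24), with adjusted p-values of 0.404 in limma, 0.0359 in DESeq2 and 0.0279 in limma without cow 489215. PCDH17 (ENSBTAG00000010420) was 73.3, 119 and 157 in LF/LCL and 67.6, 39.9 and 32.5 in SF/SCL. Here cow 617 of LF/LCL and cow 856 of SF/SCL were nearly level, and the log2 fold change was -1.30 (SE 0.45, adjusted p-value 0.486, limma). PCDH19 (ENSBTAG00000014169), the gene of an inherited epilepsy in humans, was 44, 26.3 and 29 in LF/LCL and 19, 3.99 and 10.8 in SF/SCL. Its log2 fold change of -1.65 (SE 0.61, adjusted p-value 0.511, limma) became -1.11 without cow 489215, which had the lowest count.

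PCDH12 (ENSBTAG00000008437), a protocadherin of endothelial cells, was 255, 288 and 220 in LF/LCL and 140, 260 and 126 in SF/SCL. Cow 489215 was within the LF/LCL range and the other SF/SCL cows were below it. The log2 fold change was -0.60 (SE 0.35, adjusted p-value 0.727, limma), and -0.93 without cow 489215 (adjusted p-value 0.0266). The summed endothelial markers (CDH5, VWF, TEK and CLDN5; PECAM1 was not found by name) were 7447 to 9770 in LF/LCL, 5281 and 6264 in cows 856 and 97, and 8290 in cow 489215. In that sum, as in PCDH12, cow 489215 was within the LF/LCL range and the other SF/SCL cows were below it. CDH5, the endothelial cadherin, was instead lowest in cow 489215, at 1119, 1145 and 1065 in LF/LCL and 709, 422 and 742 in SF/SCL. The part of vessels was not tested.

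The other protocadherins outside the clusters overlapped between the groups. PCDH1 was 1229 to 1488 in LF/LCL and 774 to 1552 in SF/SCL, and PCDH20 was 29 to 131 and 17.3 to 57.4. PCDH9 lay at 17.8 to 94 and 7.99 to 40.3, PCDH15 between 0.76 and 23.8, and PCDH8 did not exceed 8.67. The summed smooth muscle markers, which stood at 694207 to 814098 in LF/LCL, were 315210 and 380675 in cows 856 and 97 and 1207464 in cow 489215. MYH11, the smooth muscle myosin of that list, was 137623 to 191119 in LF/LCL and 82654, 116653 and 122911 in SF/SCL, so that it was lower in all SF/SCL cows. It was the exception, as ACTA2, DES, CNN1, SMTN and TAGLN overlapped between the groups and were highest in cow 489215. The part of muscle in the protocadherins was not tested. The median of the 9 genes was -0.93 without cow 489215.

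**Figure D5:**
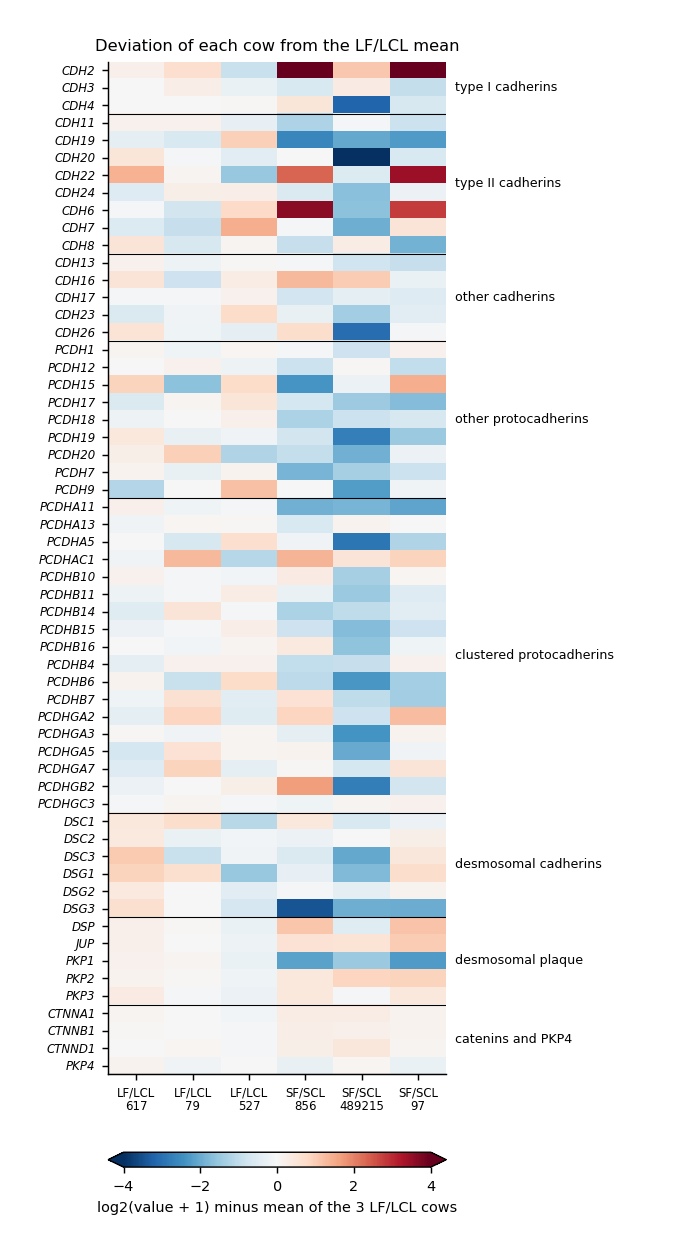
Deviation of log2(normalized count + 1) from the LF/LCL mean, by cow in columns, for the 58 genes with a mean above 5, in rows by role. PKP1, DSG3, PCDHA11 and PCDH7 are low in all SF/SCL cows, JUP and PKP2 are high in all of them, and many clustered protocadherins are lowest in cow 489215.

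Clustered protocadherins give neurons and other cells distinct surface identities, and 18 of the 20 in the table were tested. Among them 3 (16.7%) reached an unadjusted p-value under 0.05, all higher in LF/LCL (4.48% of all genes tested), and 15 of 18 had negative log2 fold changes, with a median of -0.61. Without cow 489215 the median was -0.18, and that cow was below all the other 5 in 11 of the 18. PCDHA11 (ENSBTAG00000048170) was 36.6, 28.2 and 30.7 in LF/LCL and 7.6, 7.99 and 6.5 in SF/SCL. The groups did not overlap, with means of 31.8 ± 4.34 and 7.36 ± 0.77 (SD, n = 3 each). This gave a log2 fold change of -1.97 (SE 0.39), or 3.92-fold higher in LF/LCL, with adjusted p-values of 0.367 in limma, 0.00728 in DESeq2 and 0.0213 in limma without cow 489215. The SF/SCL values rest on 6 to 10 reads per library.

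PCDHB6 (ENSBTAG00000047478) was 115, 55.4 and 174 in LF/LCL and 50.1, 20 and 40.1 in SF/SCL. Cow 79 of LF/LCL and cow 856 of SF/SCL were close, and the log2 fold change was -1.57 (SE 0.57, adjusted p-value 0.504, limma). PCDHB15 (ENSBTAG00000039067) was 158, 183 and 228 in LF/LCL and 106, 55.9 and 106 in SF/SCL. Its log2 fold change of -1.12 (SE 0.37, adjusted p-value 0.463, limma) was -0.82 without cow 489215, which was the lowest. PCDHB11 also had no overlap, at 171 to 245 in LF/LCL and 70.6 to 164 in SF/SCL, with a log2 fold change of -0.76 (SE 0.40).

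In contrast, PCDHGC3 (ENSBTAG00000017349) had nearly the same level in the groups, at 7416, 8560 and 7626 in LF/LCL and 6993, 8530 and 8865 in SF/SCL. This was a log2 fold change of 0.04 (SE 0.18). The row took 73.3% to 84.9% of all reads of the 20 clustered genes. The alpha genes share their last exons with one another, as do the gamma genes, and paralogs in these clusters are close copies. How the reads were divided among these rows, PCDHA11 included, is therefore uncertain. PCDHA13, the row with the next share of at most 7.16%, overlapped too, at 596 to 696 in LF/LCL and 431 to 719 in SF/SCL. PCDHAC1 and PCDHGA2 had positive log2 fold changes of 0.92 (SE 0.67) and 0.42 (SE 0.65), and the other 10 tested rows overlapped between the groups, with log2 fold changes from -1.41 (PCDHA5) to -0.05 (PCDHGA7).

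The catenins and PKP4 differed little. CTNNB1 (ENSBTAG00000016420) was 22319, 21439 and 20567 in LF/LCL and 25507, 24685 and 23463 in SF/SCL. CTNNA1 (ENSBTAG00000014182) was 18893, 17343 and 16215 in LF/LCL and 21471, 21418 and 19144 in SF/SCL. CTNND1 (ENSBTAG00000002411) was 8886, 9455 and 8695 in LF/LCL and 10687, 12428 and 9686 in SF/SCL, with cow 489215 highest. In all 3 every SF/SCL cow was above every LF/LCL cow, and the log2 fold changes were 0.20, 0.24 and 0.27 (SE 0.18 each). Their adjusted p-values in limma were 0.845, 0.803 and 0.764, and without cow 489215 they were 0.187, 0.2 and 0.225. PKP4, a p120-related protein of cell contacts, was 3234 to 3873 in LF/LCL and 2906 to 3708 in SF/SCL, with overlap.

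Of the genes of cell adhesion that the naming rule leaves out, a list of 47 was in the table and 43 were tested, with a median log2 fold change of -0.19. By limma 0 passed the adjusted threshold (0% of all genes), DESeq2 called 2 (E-CADHERIN and DCHS1; 2.66% of all genes), and in limma 7 (16.3%) had an unadjusted p-value under 0.05 (8.66% of all genes). Without cow 489215, 14 of 43 (32.6%) passed the adjusted threshold in limma (18.2% of all genes) and 23 (53.5%) the unadjusted one (33.9%). The 7 with all cows were E-CADHERIN, FAT3, DCHS1, TMEM47, ZEB1 and ADAM10, higher in LF/LCL, and CTNND2, higher in SF/SCL. DCHS1 (ENSBTAG00000015405), a giant cadherin that pairs with FAT4 in planar polarity, was 2421, 2827 and 3152 in LF/LCL and 1491, 988 and 1503 in SF/SCL. It had a log2 fold change of -1.09 (SE 0.23), with adjusted p-values of 0.367 in limma and 0.00837 in DESeq2. FAT3, another giant cadherin, was 676, 795 and 857 in LF/LCL and 274, 58.6 and 545 in SF/SCL.

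ZEB1, a repressor of the E-cadherin gene, was 1299, 1594 and 1623 in LF/LCL and 943, 526 and 1087 in SF/SCL, so that it differed in the same direction as E-CADHERIN. Of other repressors of that gene, TWIST1 was 282 to 453 in LF/LCL and 215 to 280 in SF/SCL. SNAI1, SNAI2, ZEB2 and TWIST2 overlapped between the groups. The part of these repressors in E-CADHERIN was not tested. ADAM10, a protease that sheds cadherins, was 2897, 3250 and 2955 in LF/LCL and 2364, 1152 and 2241 in SF/SCL. TMEM47, a membrane protein of cell junctions, was 772 to 926 in LF/LCL and 557 to 662 in SF/SCL. CTNND2, delta-catenin, was 48.1, 26.3 and 19.3 in LF/LCL and 137, 54.6 and 60.7 in SF/SCL. Cow 489215 was the lowest of the 6 in FAT3, DCHS1, ZEB1, ADAM10 and TMEM47. The adjusted p-values of ZEB1, ADAM10, TMEM47, FAT3 and CTNND2 in limma were 0.492, 0.573, 0.554, 0.565 and 0.543.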

How the data were processed

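Polyadenylated RNA of 6 isthmus samples was sequenced as paired ends. The authors aligned the cleaned reads to the masked UMD3.1 genome with TopHat2 2.0.8 and Bowtie2 2.1.0, counted unique reads per gene with HTSeq 0.5.4p2 and divided the counts by DESeq size factors. Whether counting used the strand is not given in the sources used here, so a gene and an antisense partner cannot be told apart. The deposited signal values are these normalized counts, and 100% of 147696 values came back as whole reads (within 0.0006).

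Groups came from the sample titles. Genes were tested (15387) where the mean over the cows exceeded both 5 and the SD, with limma 3.58.1 in R 4.3.3 (trend and robust) on log2(value + 1), which understates changes of low genes, and with Benjamini-Hochberg adjustment over all genes tested. Alternatives were the edgeR 4.0.16 quasi-likelihood test, DESeq2 1.42.0 and limma-voom on the recovered reads, TMM rescaling, pseudocounts of 0.5 and 5, other filters and leaving out each cow. Python 3.11.15 was used, and the tests were tried on simulated data. Floors (3 reads) cover counting error only.

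The genes and lists were chosen with earlier results of these data known. By rule, values per cow are given for genes with an unadjusted p-value under 0.05, genes without overlap and a log2 fold change of at least 1 in size, core junction genes, the 6 of smallest p-value past the threshold without a cow, and the 3 highest and 3 lowest in cow 489215. Others were added for their role. Symbols matched RefSeq for 47 genes (assembly NIAB-ARS_B.indTharparkar_mat_pri_1.0), used for gene order alone. Some genes of the Schwann cell marker list are not reported here.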

Additional observations from a re-analysis of the deposited data

How the results depend on the processing

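The number of genes past the adjusted threshold was 5 with DESeq2 and ranged from 0 to 12 when each cow was left out, 12 being without SF/SCL cow 489215 and 0 without any other. The other fits, filters, pseudocounts and scalings gave 0. The number at an unadjusted p-value under 0.05 ranged from 7 to 18 with a cow left out, and the median log2 fold change from -0.73 (without cow 856) to -0.23 (without cow 489215). Of 30 genes named by the rule and tested, 3 changed sign. DSC2 (0.00) was -0.04 with edgeR and TMM, -0.01 with edgeR and DESeq2 size factors and with DESeq2, -0.03 with limma-voom and with TMM rescaling, and -0.14 to 0.19 with a cow left out (below 0 without cow 79, 527 or 97). With a cow left out, DSG2 was -0.31 to 0.10 (above 0 without cow 617 and, at 0.03, without cow 489215) and CDH26 was -1.56 to 0.31 (above 0 without cow 489215). The cause was not tested. No scaling moved the median of all genes by more than 0.1. No paired analysis was possible because the groups share no cow and no replicate number. With 3 cows per group and nothing said of batches, the precision is limited by the spread between cows. The values of CDH20, PCDH19 and PCDHA11 in SF/SCL rest on few reads. Those of DSG3 rest on 12, 21 and 25 reads in SF/SCL, and those of CDH19 on 20, 17 and 18. Without cow 79 or without cow 527, DSG3 did not pass the filter and was not tested.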
